A study of Mus musculus with 6 samples.

Results

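The comparison set checkpoint-treated T cells labelled as lacking Irf4 against wild-type T cells of IgG-treated recipients in mice that had received a heart graft. Its members were 4 of the 6 arrays of the series, chosen by their labels: 2 arrays of the group called Irf4 KO blockade and 2 of the group called WT IgG. TEa cells are CD4+ T cells with a transgenic receptor (Vα2+Vβ6+), here on a C57BL/6 background and carrying CD45.2. WT or Irf4-/- TEa cells were transferred on day -1 into B6.SJL mice that carry CD45.1. A Balb/c heart was transplanted on day 0, and spleens were taken on day 6 to sort the CD45.2+ TEa cells. Recipients in the blockade group were injected on days 0, 3 and 5 with 200 µg of an antibody to PD-L1 and 200 µg of the antibody 9D9 to CTLA-4. For the WT group the labels give rat IgG without a dose. The age of the mice is not given in the sources used here. The labels mark array 2 of each group as a repeat, and the kind of repeat is not stated in them. Genotype and antibody differed together between the groups, so their parts in any difference cannot be told apart. The antibodies were injected into recipients that kept their own CD45.1+ cells, and the sorted cells were the transferred ones. The third group, Irf4 KO cells with 400 µg rat IgG, enters below only where its arrays bear on a label. The question the comparison addresses is how far T cells that lack Irf4 resemble WT responders to a graft once PD-L1 and CTLA-4 are blocked.

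Irf4 is a transcription factor that rises with the strength of T cell receptor signalling. It binds DNA weakly on its own and works with partners such as Batf and Jun family proteins at composite elements, and it is known for driving the expansion and effector differentiation of activated T cells. PD-1, the receptor of PD-L1, and CTLA-4 are inhibitory receptors that restrain activated T cells, and antibodies that block them are used to restore responses of dysfunctional cells.

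The arrays were single-colour Agilent mouse arrays. Values are given as scaled intensity, the background-subtracted signal of a probe divided by the array's 75th percentile, and fold changes are log2 differences, blockade minus WT. Probes differ in brightness for technical reasons, so levels are compared between arrays and never between genes. A probe counted as detected where the scanner software called it well above background. The share of probes detected was 37.3% and 40.5% on the WT arrays and 39.7% and 34.5% on the blockade arrays, against 66.0% and 75.3% on the arrays of the third group. All 11 T cell identity genes with a probe, among them Cd3d, Cd3e, Lck and Cd4, were detected on all 4 arrays. Their scaled intensities summed to 4048 and 3848 in WT and to 3329 and 3708 in blockade. In sorted bulk cells, fewer cells of a type and less RNA per cell cannot be told apart.

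Irf4 itself (gene identifier 16364, chromosome 13) read 7.84 and 9.23 in WT and 22.3 and 25.8 in blockade, as scaled intensity. The blockade arrays were thus the brighter ones, without overlap, against the label. The difference was 1.5 on the log2 scale (SE 0.17, limma adjusted p = 0.0193), and a second, dimmer probe gave 1.64. The call ended without blockade array 1 (1.60, adjusted p = 0.0674) and without blockade array 2 (1.39, adjusted p = 0.123), and over 16 other settings the adjusted p ranged from 1.2e-12 to 0.123. Before scaling, the brighter probe read 673 and 1068 in WT, 2071 and 1703 in blockade, and 2128 and 3073 on the other arrays labelled Irf4 KO. Whether either probe falls within the deleted exons cannot be read from the files, so these signals do not check the genotype. The arrays are called by their labels throughout, and each direction below is that of the arrays labelled Irf4 KO blockade.

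Of 15619 genes tested, 287 passed the threshold (1.84%; limma, adjusted p under 0.05), 166 higher in the blockade group (1.06%) and 121 lower (0.775%). A further measure, the share of genes whose 2 blockade arrays both lay above or both lay below the 2 WT arrays, was 49.9% over all genes, 26% higher and 23.9% lower. The smallest change that passed was 1.83-fold and the median 3.83-fold, and 139 of the genes that passed differed by over 4-fold, 85 higher and 54 lower. The median log2 fold change over all genes was 0.03. At an unadjusted p under 0.05 in limma there were 2761 of the 15619 genes. The 2 WT arrays differed by a median of 0.25 on the log2 scale and the 2 blockade arrays by 0.24. Leaving out arrays moved the count widely, to 1942 without WT array 1, 1115 without WT array 2, 52 without blockade array 1 and 11 without blockade array 2. Most of the 287 genes still passed without either WT array, and few did without either blockade array. The groups did not overlap for any of the 287, so leaving out 1 array could not reverse a direction. Among the genes named here, Penk and Tmprss13 passed in each setting in which they were tested. Scaling by the array median moved the median log2 fold change of all genes from 0.03 to 0.15 and gave 234 higher and 76 lower genes, 75.5% higher against 57.8%. The 287 genes included 230 that still passed on that scale, 200 after quantile normalisation, 230 with the slide row of the array as a block and 94 with no intensity trend in the fit. With the slide row as a block, the calls on Jun, Zbtb32, Ikzf4, Ccr4, Il7r, Socs3, Slc16a3, Kif20a, Gins2, H3c13 and the U1 genes Rnu1a1, Rnu1b1 and Rnu1b6, described below, ended.

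**Figure D1:**
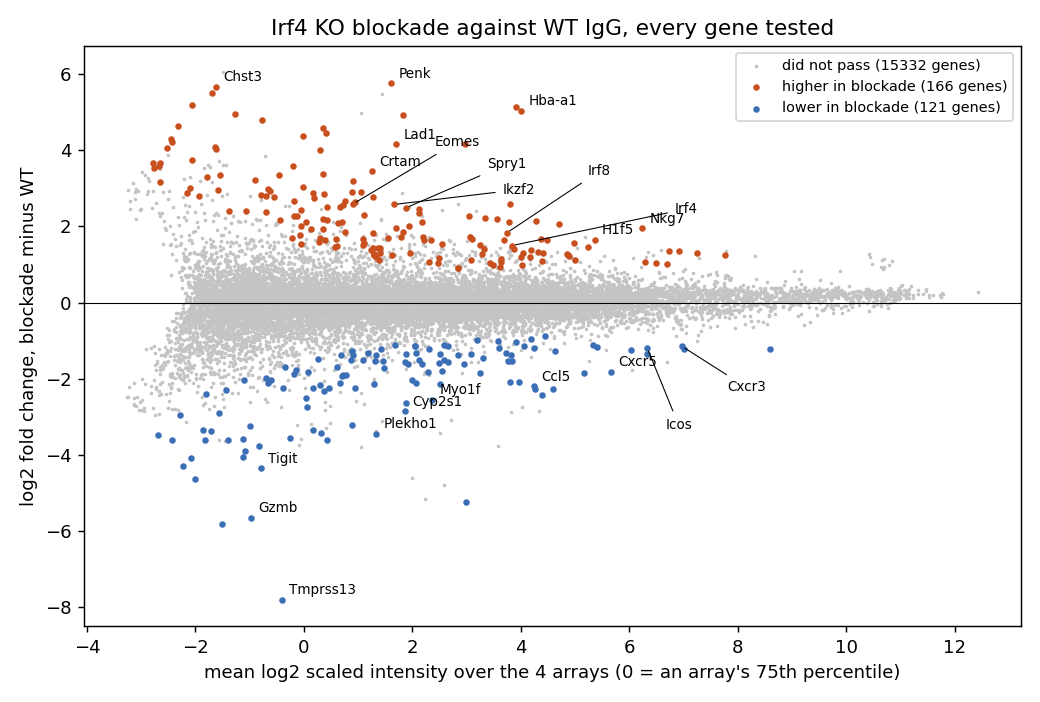
Each point is 1 gene, with the mean log2 scaled intensity over the 4 arrays on the horizontal axis and the log2 fold change, blockade minus WT, on the vertical axis. The 166 genes that passed as higher are orange and the 121 that passed as lower are blue, and Penk and Tmprss13 lie at the upper and lower ends of the genes that passed.

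Penk (gene identifier 18619, chromosome 4), which encodes the opioid precursor proenkephalin, had the largest log2 fold change among genes that passed and were detected on all 4 arrays. Its WT arrays read 0.339 and 0.511 and its blockade arrays 24.9 and 20.3. The groups lay far apart, by 5.75 on the log2 scale (SE 0.26, limma adjusted p = 0.00296). Tmprss13 (gene identifier 214531, chromosome 9), a membrane-bound serine protease, showed the reverse. It had a scaled intensity of 10.4 and 12.3 on the WT arrays and was not well above background on either blockade array. It was at least 50.7-fold lower, where the bound sets the WT mean against the lowest signal called detected on each blockade array. The fitted difference was -7.81 on the log2 scale (limma adjusted p = 0.00316). Here and beside every bound below, the p is that of the fitted difference, which includes signals not well above background. It does not test the bound.

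Transcription factors moved in both directions. Among 26 tested members of a list of Irf family genes and their partners, 5 rose and 3 fell, and the list's median log2 fold change was 0.16. Eomes (gene identifier 13813, chromosome 9), a T-box factor of cytotoxic and memory T cells, had scaled intensities of 0.809 and 0.722 in WT and 4.51 and 4.71 in blockade. Its arrays were tight within each group, and the log2 fold change was 2.59 (SE 0.20, limma adjusted p = 0.00805). Irf8, the Irf family member closest in sequence to Irf4, read 7.91 and 6.35 in WT and 23.1 and 27.5 in blockade (1.83, SE 0.18, adjusted p = 0.0146). Batf, the AP-1 family partner of Irf4, went from 60.9 and 48.2 to 108 and 119 (1.06, SE 0.17, adjusted p = 0.0462). Ikzf3, which encodes Aiolos, rose by a log2 fold change of 1.05. Its other probe gave 0.53, and the call ended with the mean of the probes. The members that fell were Runx3, a factor of cytotoxic lineage T cells, Jun, the AP-1 subunit, and Nfatc2, a calcium-regulated factor that was named after its value was seen. Runx3 read 9.26 and 10.1 in WT and 3.19 and 3.31 in blockade (-1.58, SE 0.16, adjusted p = 0.0153). Jun was 13.8 and 23.8 against 4.22 and 5.92 (-1.86, adjusted p = 0.0461) and Nfatc2 had a log2 fold change of -1.27 (adjusted p = 0.0389). Tbx21 (T-bet), Bcl6 and Tcf7 did not pass, with log2 fold changes of 0.18, -0.49 and -0.14. Zbtb32, a zinc finger repressor from another list, rose from 0.918 and 0.885 to 2.74 and 2.21 (1.45, adjusted p = 0.0449). Jun passed in 6 of 16 other settings, and its call ended, among others, on the median scale, after quantile normalisation and with slide row as a block. Of the Irf list, 0 higher and 1 lower member passed without blockade array 1, and 0 of either without blockade array 2.

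Because Irf4, Batf and Jun act on DNA together, the 250 bases before the start of each gene that passed were searched on both strands for 4 patterns. These were the AP-1 element TGANTCA, an interferon-response pattern (GAAA, any 2 bases, GAAA), and 2 composites of Irf and AP-1 elements that contain the AP-1 element and so overlap with it. The adjacent composite is GAAA directly followed by TGANTCA, and the spaced one is TTTC, any 4 bases and TGANTCA. RefSeq promoters of the GRCm38.p6 build matched 108 of the 166 higher genes, 68 of the 121 lower genes and 8626 of all tested genes. TGANTCA was found in 11 of the lower promoters (16.2%), in 10 of the higher ones (9.26%) and in 5.17% of those of all tested genes. The interferon-response pattern was found in 6 higher promoters (5.56%) and 0 lower ones, beside 3.22% of all tested. The adjacent composite was present in 1 lower promoter, that of Ccr4, and in 7 of the 8626. The spaced composite was in 0 of either direction and in 7 of the 8626. Over all 32851 promoters of the table the AP-1 element was in 6.75% and the interferon-response pattern in 2.98%. The shares are descriptions, and a match is not a bound site. The promoters of Gzmb and Ccr4, which fell, and of Eomes, which rose, are shown as chosen examples of promoters that hold these patterns, written in capitals. They lie at chr14:56262335-56262584 (minus strand), chr9:114496545-114496794 (minus strand) and chr9:118477939-118478188 (plus strand) and are written 5′ to 3′ in the direction of the gene, ending at the base before its start. The pattern begins 58 bases before the start in Gzmb, 147 in Ccr4 and 154 in Eomes.
Gzmb: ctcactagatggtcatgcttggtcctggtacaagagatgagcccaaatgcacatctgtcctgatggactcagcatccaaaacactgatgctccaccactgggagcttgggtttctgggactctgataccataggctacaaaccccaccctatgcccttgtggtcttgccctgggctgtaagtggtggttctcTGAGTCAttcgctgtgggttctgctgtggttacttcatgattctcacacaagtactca
Ccr4: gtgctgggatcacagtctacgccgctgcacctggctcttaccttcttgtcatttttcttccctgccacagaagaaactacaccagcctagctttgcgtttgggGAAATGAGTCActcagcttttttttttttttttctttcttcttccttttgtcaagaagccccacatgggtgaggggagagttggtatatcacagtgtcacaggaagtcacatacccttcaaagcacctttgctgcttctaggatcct
Eomes: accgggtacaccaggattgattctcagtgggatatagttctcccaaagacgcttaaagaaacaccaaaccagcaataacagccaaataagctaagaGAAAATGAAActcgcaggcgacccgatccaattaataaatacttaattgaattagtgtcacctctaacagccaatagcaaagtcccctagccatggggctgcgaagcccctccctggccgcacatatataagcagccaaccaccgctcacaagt

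Effector genes of Th1 and cytotoxic cells were mostly lower in the blockade group. Of 19 tested members 6 fell and 1 rose, with a median log2 fold change of -0.87, 14 negative and 5 positive. Gzmb (gene identifier 14939, chromosome 14), the granule protease granzyme B whose promoter is shown above, read 4.05 and 3.22 in WT and was not well above background on either blockade array. It was at least 16.2-fold lower, and the fitted difference was -5.65 on the log2 scale (limma adjusted p = 0.0268). Ccl5, a chemokine that attracts T cells and monocytes, went from 47.4 and 34.5 to 9.76 and 7.89 (-2.20, SE 0.21, adjusted p = 0.012). Fasl, the death ligand, went from 1.73 and 3.47 to 0.558 and 0.48 (-2.24, SE 0.37, adjusted p = 0.0481). The groups did not overlap for any of these, although the WT arrays of Fasl differed by more than those of Ccl5. The receptor of interleukin 18, Il18r1, had a log2 fold change of -2.16 and the chemokine receptor Cxcr6 of -1.71, both passing. The member that rose was Nkg7, a protein of cytotoxic granules. It had scaled intensities of 39.2 and 37.3 in WT and 157 and 139 in blockade (1.95, SE 0.15, adjusted p = 0.00805). Ifng, the interferon γ gene, read 2.49 and 4.52 in WT and 1.16 and 0.0675 in blockade. Its blockade arrays differed strongly from each other, and the signal on blockade array 2 was not well above background. The log2 fold change of -3.59 thus rests in part on an undetected signal, and it did not pass (limma adjusted p = 0.208). Crtam, a surface receptor of activated cytotoxic-type T cells that is in no list, rose from 0.836 and 0.62 to 8.23 and 7.5 (3.45, adjusted p = 0.00793). On the median scale Fasl, Il18r1 and Cxcr6 no longer passed. The list held 1 higher and 3 lower members without blockade array 1, and 0 higher and 1 lower, Gzmb, without blockade array 2.

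Chemokine receptors, integrins and other homing genes fell in 5 of 18 tested cases and rose in 1 (median -0.36). Cxcr3, the receptor that guides Th1 cells to inflamed tissue, read 196 and 176 in WT and 83.5 and 84.3 in blockade (-1.14, SE 0.15, limma adjusted p = 0.0281). Cxcr5, which draws T cells into follicles, read 90.6 and 99.8 against 26.6 and 27.4 (-1.82, SE 0.14, adjusted p = 0.00805). In both genes the WT arrays were more than 2 times as bright as the blockade arrays and the arrays of a group lay close together. Itgb1, the integrin β1 chain, had a log2 fold change of -1.35 and Cd44, a hyaluronan receptor of activated cells, of -0.99 (adjusted p = 0.0497). Cxcr4, the receptor of a chemokine made in bone marrow and lymphoid stroma, was the member that rose, from 1.02 and 0.777 to 3.04 and 3.41 (1.85, SE 0.23, adjusted p = 0.0272). Ccr4, a receptor of Th2 and skin-homing cells, was detected on both WT arrays and neither blockade array and was at least 5.72-fold lower (adjusted p = 0.0457). It belongs to the Th2 and Th17 list, in which 2 of 6 tested genes fell. The median of these 6 was -2.59, and 0.20 over the 3 that were detected on all 4 arrays. The other gene that fell was Rora, a factor of Th17 and innate lymphoid cells, which went from 4.35 and 3.99 to 1.17 and 0.665 (-2.24, adjusted p = 0.0305). On the median scale Cd44, Ccr4 and Rora no longer passed. The homing list held 1 lower gene without blockade array 1 and 0 without blockade array 2, and the Th2 and Th17 list held 0 in both fits.

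Among 16 tested co-inhibitory receptors and ligands, 2 fell and 1 rose (median -0.29). Tigit, an inhibitory receptor that competes with Cd226 for shared ligands, read 2.27 and 3.02 in WT and was not well above background on either blockade array. It was at least 11.8-fold lower (limma adjusted p = 0.00818). Lair1, a collagen receptor, went from 1.49 and 1.2 to 0.35 and 0.3 (-2.04, limma adjusted p = 0.0362). Its signal on blockade array 2 was not well above background. Cd200, a ligand that restrains myeloid cells, went from 7.49 and 7.6 to 16.5 and 14.7 (1.05, limma adjusted p = 0.0362). The receptors targeted by the treatment, or those of its targets, did not pass. Pdcd1, the PD-1 gene, read 34.1 and 28.6 in WT and 25.9 and 17.9 in blockade (-0.54, adjusted p = 0.275). Ctla4 read 2.45 and 1.75 against 1.92 and 2.7, overlapping between groups (0.14, adjusted p = 0.827). Cd274, the PD-L1 gene, and Lag3 had log2 fold changes of -0.29 and 0.37. A p that misses the threshold does not show equal levels. Of 15 tested costimulatory genes 2 fell and 0 rose: Icos, the inducible costimulator, from 116 and 126 to 55.4 and 51.1 (-1.19, SE 0.15, adjusted p = 0.0251), and Tnfsf11, which encodes RANKL, by a log2 fold change of -1.33. The other probes of Cd200 and Tnfsf11 gave 0.71 and -0.69, and both calls ended with the mean of the probes. On the median scale the call on Tnfsf11 ended too. Without blockade array 1 the co-inhibitory list held 0 higher and 1 lower gene and the costimulatory list 0. Without blockade array 2 both lists held 0 of either direction.

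**Figure D2:**
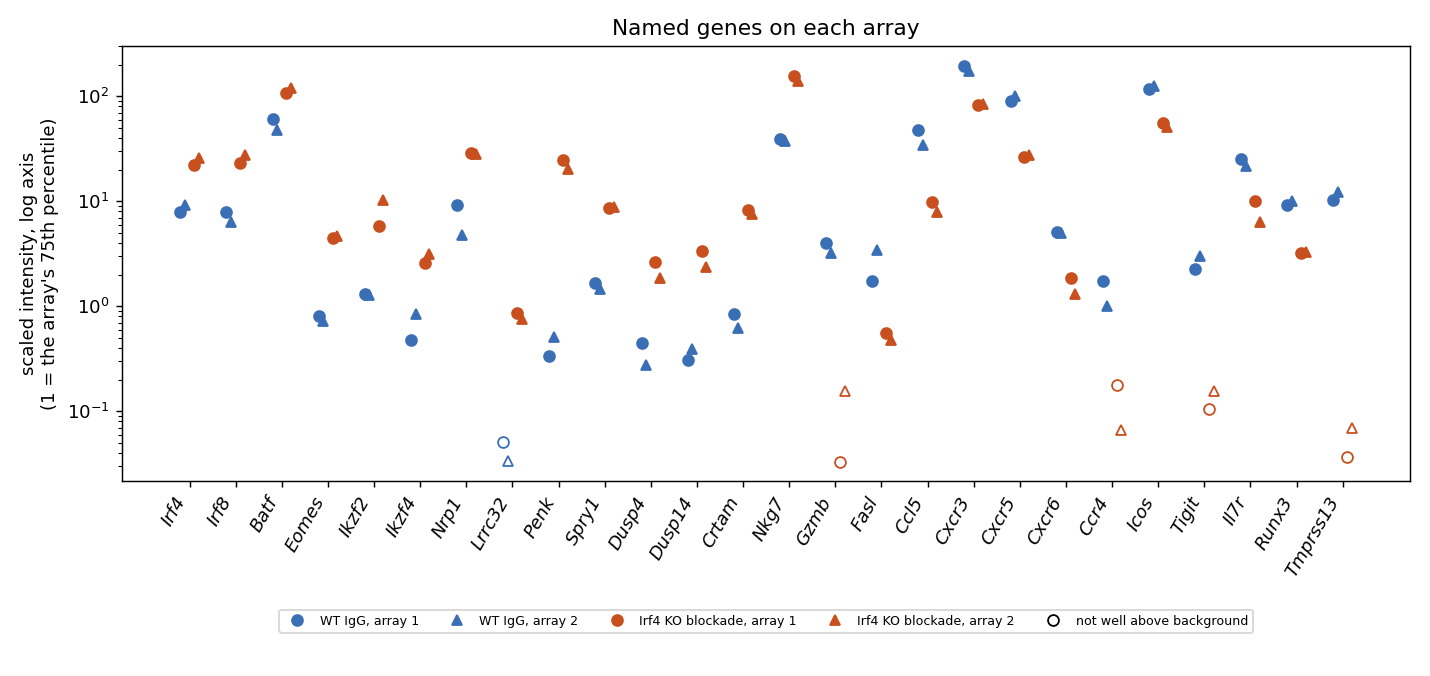
Scaled intensity of 26 named genes on each of the 4 arrays, on a log axis where 1 is the array's 75th percentile; blue marks WT IgG, orange Irf4 KO blockade, circles array 1, triangles array 2 and open symbols values not well above background. For each gene drawn, the 2 arrays of a group lie on the same side of the other group's 2 arrays.

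Members of a list of regulatory T cell genes were higher in the blockade group. The list was made with earlier results of these data known, so the shared direction of its members is not independent evidence. Of 13 tested members 4 rose and 0 fell, all 13 log2 fold changes were positive, and the median was 1.64 beside 0.03 over all genes. Ikzf2, which encodes Helios, read 1.32 and 1.27 in WT and 5.76 and 10.4 in blockade (2.57, SE 0.30, limma adjusted p = 0.0216). Ikzf4, which encodes the related factor Eos, read 0.474 and 0.851 against 2.56 and 3.18 (2.17, SE 0.33, adjusted p = 0.0429). Nrp1, the semaphorin receptor neuropilin, read 9.25 and 4.73 against 28.8 and 28.1 (2.10, SE 0.31, adjusted p = 0.0382). The WT arrays of Nrp1 differed by more than its blockade arrays, and its probes ranged from 2.10 to 3.04. Lrrc32, which encodes GARP, a surface anchor of latent TGF-β, was detected on the blockade arrays alone and was at least 4.24-fold higher (adjusted p = 0.0217). Il2ra, the interleukin 2 receptor α chain, read 0.147 and 0.348 in WT and 1.48 and 1.44 in blockade and fell just short of the threshold (2.69, limma adjusted p = 0.0501). Its signal on WT array 1 was not well above background. Foxp3, the factor that defines the lineage, was detected on 1 of 2 WT arrays and both blockade arrays and did not pass (1.15, adjusted p = 0.209). The list held 1 higher gene without blockade array 1 and 0 without blockade array 2, with all 13 positive in each, and after quantile normalisation Ikzf4 and Nrp1 no longer passed.

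An anergy and dysfunction list shares Ikzf2 and Nrp1 with the regulatory one. Of its 22 tested members 4 rose and 0 fell: these 2 genes, Penk and Eomes. The other members did not move together, since the median was 0.36 and 9 of 22 were negative. Tox, a factor linked to exhaustion, read 12.2 and 14.1 in WT and 20.6 and 22 in blockade without overlap, but did not pass (0.70, SE 0.15, limma adjusted p = 0.088). Nt5e and Izumo1r, surface markers of anergic CD4+ T cells, had log2 fold changes of 0.40 and 0.48. Leaving out blockade array 1 left 2 higher genes in the list, and leaving out blockade array 2 left 1, Penk.

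Negative regulators of the ERK and MAP kinase pathway included some of the sharper rises. Of 14 tested members 4 rose and 0 fell, while the median was 0.10, near that of all genes, and -0.02 after normexp background correction. Spry1, a Sprouty protein that dampens signalling from receptors to ERK, read 1.65 and 1.46 in WT and 8.6 and 8.76 in blockade (2.48, SE 0.18, limma adjusted p = 0.00805). The MAP kinase phosphatase genes Dusp14 and Dusp4 went from 0.304 and 0.391 to 3.35 and 2.37 and from 0.444 and 0.275 to 2.63 and 1.87. Their log2 fold changes were 3.03 and 2.66. Dusp1, a phosphatase induced by stress, went from 2.56 and 2.67 to 9.78 and 6.87 (1.65, adjusted p = 0.0296). Beside these 4 genes, the other 10 members of the list had log2 fold changes from -0.87 to 0.61. Neither T cell receptor signalling genes (0 of 26, 8 at an unadjusted p under 0.05) nor NF-kB genes (0 of 18, 1 at an unadjusted p under 0.05) held a member that passed in limma. Over all genes 2761 of 15619 had an unadjusted p under 0.05 in limma. After normexp correction the call on Dusp1 ended. With either blockade array left out, 0 members of the ERK list passed.

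Cytokine receptor and signal genes fell in 2 of 27 cases and rose in 0. Il7r, the interleukin 7 receptor of naive and memory cells, read 25.1 and 21.4 in WT and 10.1 and 6.32 in blockade (-1.54, SE 0.25, limma adjusted p = 0.0457). Socs3, an inhibitor of cytokine signalling, read 65.2 and 52.7 against 29.8 and 24.9 (-1.10, SE 0.18, adjusted p = 0.0457). Dapl1, a gene of naive T cells, went the other way, from 69.6 and 77.4 to 137 and 157 (1.0, adjusted p = 0.0444). Egln3, an oxygen-sensing hydroxylase, and Epas1, which encodes the hypoxia factor HIF-2α, fell by 2.75 and 2.50 on the log2 scale and passed. Slc16a3, a lactate exporter, rose by 1.25, and the other 23 of 25 tested glycolysis and hypoxia genes did not pass. The calls on these 6 genes ended without blockade array 1 and without blockade array 2, and those on Il7r and Socs3 also on the median scale.

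Most cell cycle genes read higher on both blockade arrays than on both WT arrays, and few passed the threshold. Of 32 tested genes of mitosis and the spindle, 32 were positive, 3 rose and 0 fell, and the median was 1.25. In 29 of the 32 the groups did not overlap, beside 26% of all genes. Aurkb, the Aurora B kinase, read 0.657 and 0.846 in WT and 2.27 and 2.37 in blockade (1.64, SE 0.24, limma adjusted p = 0.0382). Cdc20, an activator of the anaphase-promoting complex, read 10.9 and 14.5 against 32.4 and 30.4 (1.32, SE 0.18, adjusted p = 0.033). Kif20a, a mitotic kinesin, read 1.49 and 2.45 against 5.94 and 6.75 (1.73, SE 0.27, adjusted p = 0.0449). In each of these genes WT array 1 was the lowest of the 4. Mki67, the proliferation antigen Ki-67, read 3.24 and 12.4 in WT and 10.6 and 5.23 in blockade, so its groups overlapped (0.24, adjusted p = 0.878). Of 32 tested genes of DNA replication, 31 were positive and 1 rose, Gins2 of the replicative helicase, from 1.39 and 1.86 to 4.01 and 4.7 (1.43, adjusted p = 0.0449). Their median was 1.01 and in 28 the groups did not overlap.

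The WT arrays differed from each other in these lists. WT array 2 was above WT array 1 in 31 of the 32 mitotic genes, by a median of 0.88 on the log2 scale, and in 31 of the 32 replication genes, by 0.57. Without WT array 1 the medians were 0.82 and 0.56, and without WT array 2 they were 1.69 and 1.31. The numbers of genes that passed then were 18 and 13, and 29 and 19. With either blockade array left out they were 0 in both lists. On the median scale Kif20a no longer passed.

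Replication-dependent histone genes, which are expressed in S phase, rose in 7 of 16 tested cases, with 16 positive and a median of 1.23. In 15 the groups did not overlap, beside 26% of all genes that were higher without overlap. H1f5, a linker histone, read 20.9 and 25.6 in WT and 59.98 and 88.2 in blockade (1.65, SE 0.22, limma adjusted p = 0.0307). H1f1, another linker histone, read 1.69 and 2.15 against 7.18 and 8.1 (2.0, SE 0.20, adjusted p = 0.0146). H3c13 had a log2 fold change of 1.45, H3c3 of 1.35 and H2bc14 of 1.23. Histone genes are close copies of each other, so the copy that a probe reads is uncertain. Blockade array 2 was above blockade array 1 in 16 of 16. Leaving out blockade array 1 left 1 higher gene, and leaving out blockade array 2 left 0. Cytosolic ribosomal protein genes are shown beside them. In limma 0 of 26 passed (0 at an unadjusted p under 0.05). All 26 were positive, with a median of 0.23, and 15 were higher without overlap, beside 26% of all genes.

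**Figure D3:**
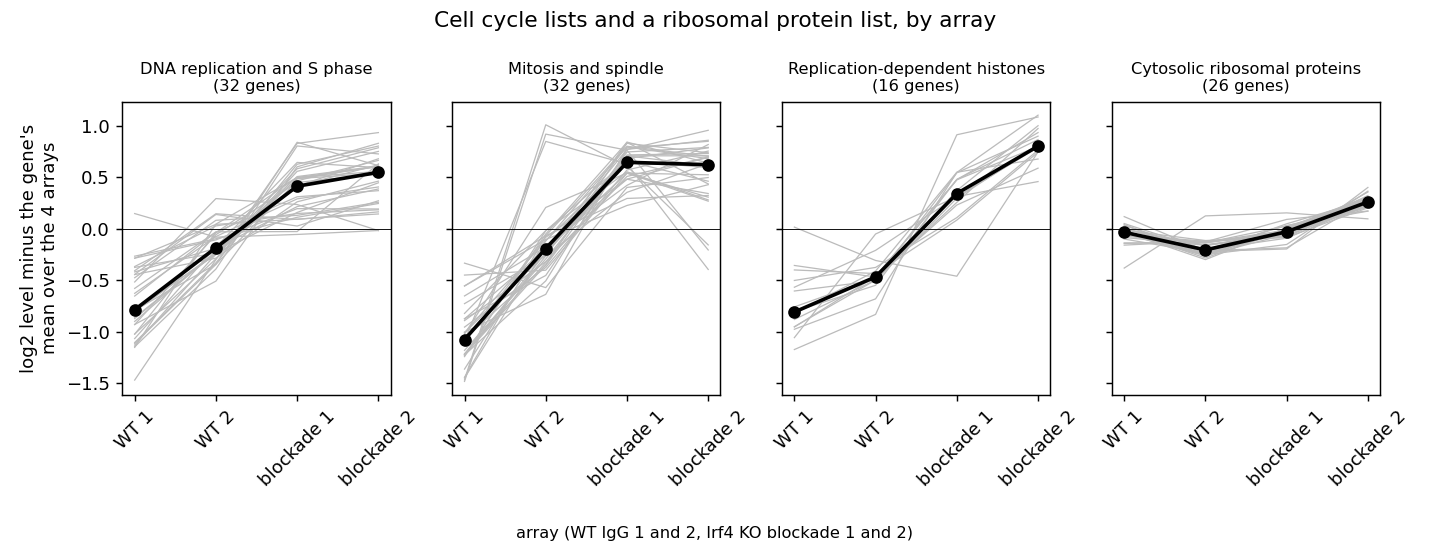
The level of each gene on each array, as log2 minus the gene's own mean over the 4 arrays, with 1 grey line per gene and black points for the median of the list. WT array 1 is the lowest in the replication and mitosis lists, both blockade arrays lie above both WT arrays in the median of all 3 cell cycle lists, and the ribosomal protein medians lie between -0.20 and 0.26.

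**Figure D4:**
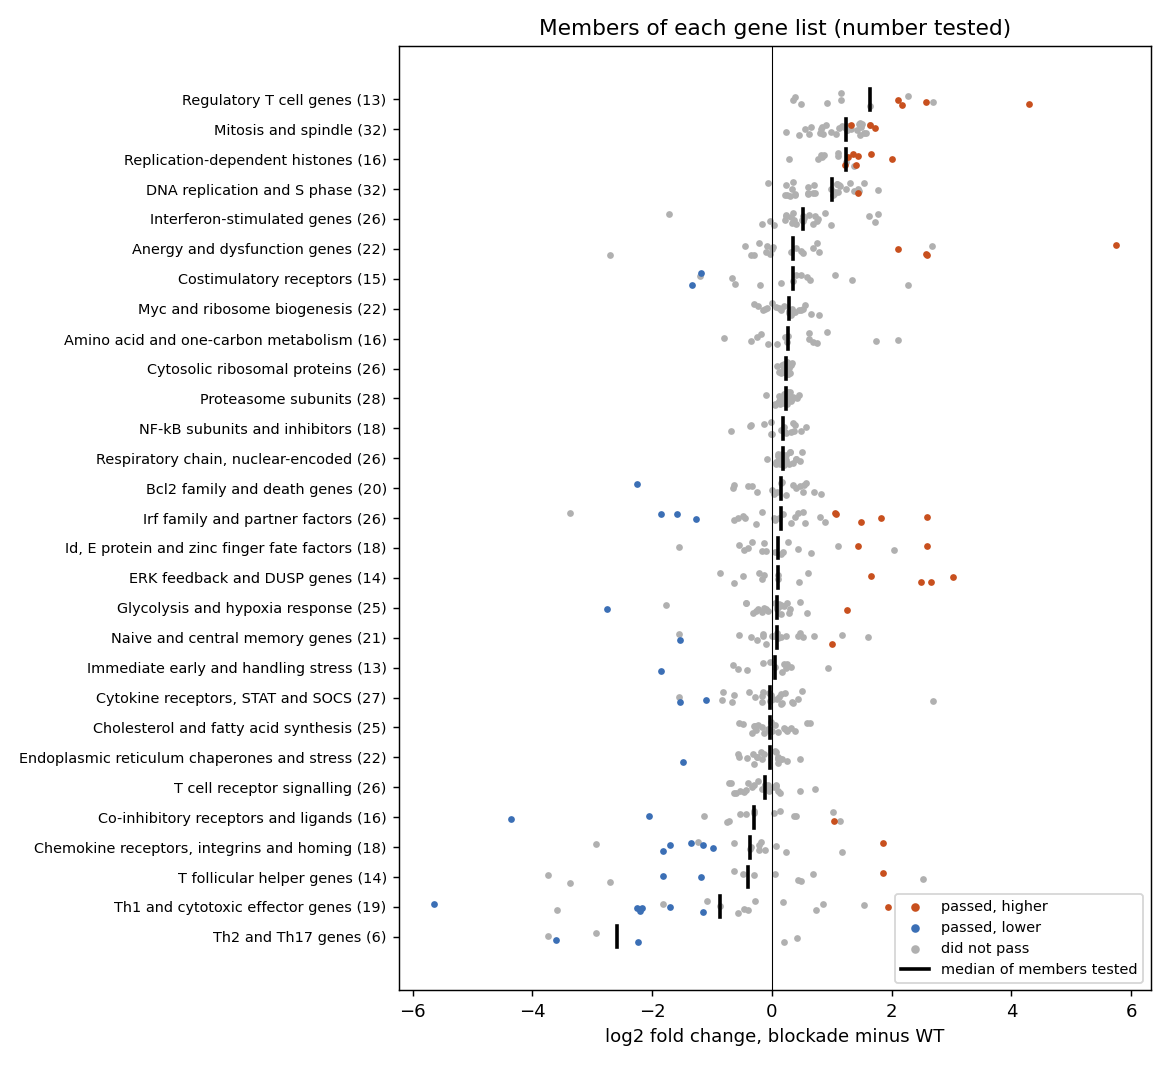
The log2 fold change, blockade minus WT, of each tested member of the 29 lists of T cell and housekeeping genes with at least 5 tested members, with genes that passed in orange (higher) or blue (lower) and a black bar at each list's median. Regulatory T cell, mitosis, histone and replication lists have medians between 1.01 and 1.64, and the Th1 and cytotoxic list has a median of -0.87. The Th2 and Th17 list, with 6 tested genes, has a median of -2.59, but of 0.20 over its genes detected on all 4 arrays.

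Interferon-stimulated genes had 0 of 26 members past the threshold (5 at an unadjusted p under 0.05 in limma), a median of 0.51 and 23 positive values. WT array 2 lay below WT array 1 in all 26, by a median of 0.96. Without WT array 1 the median was 1.0 with 18 members higher, and without WT array 2 it was -0.03 with 2 higher and 1 lower. Gbp2, an interferon-induced GTPase, read 28.5 and 14 in WT and 64.9 and 67.1 in blockade (1.72, adjusted p = 0.0625). Oasl1, an inducible antiviral gene, read 5.98 and 3.43 against 12.2 and 19.5 (1.77, adjusted p = 0.063). Apart from the glycolysis and hypoxia list above, the lists of metabolism, biogenesis and protein turnover named next had 0 members past the threshold. In limma 0 of 26 respiratory chain genes, 0 of 28 proteasome subunits, 0 of 22 Myc and ribosome biogenesis genes, 0 of 25 cholesterol and fatty acid genes and 0 of 16 amino acid and one-carbon genes passed. At an unadjusted p under 0.05 these counts were 2, 2, 4, 4 and 7, beside 2761 of all 15619 genes tested. Respiratory chain genes were positive in 25 of 26 cases and higher without overlap in 10 (median 0.19), and proteasome genes in 27 of 28 and 14 (median 0.23). Over all genes tested 26% were higher without overlap. Asns, the asparagine synthetase gene, came nearest, from 0.576 and 0.842 to 4.05 and 2.23 (2.11, adjusted p = 0.0501).

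Genes detected in 1 group alone numbered 127 on both blockade arrays and neither WT array, of which 24 passed. On both WT arrays and neither blockade array there were 224, of which 21 passed. Over all genes tested 1.84% passed. With an established symbol there were 82 in each direction, and the others had predicted, clone or chip names. Blockade array 2 had the lowest share of probes detected among the 4 arrays (34.5%), and its part in these counts was not tested. Among blockade-only genes with an established symbol, other than the globin genes described with the red cell markers, the largest bounds were those of Ces2b, a carboxylesterase (at least 16.2-fold higher), and Chst3, a chondroitin sulfotransferase (at least 12.2-fold), both at a limma adjusted p of 0.00805. Glt28d2, Wnt3, Cd24a and Sphk1, the sphingosine kinase gene, had bounds from 5.76 to 7.59 and passed. The clone-named gene 1810009J06Rik, mentioned after its values were seen, had a bound of 15.2 and did not pass (adjusted p = 0.103). Plxdc2 and Car2 had bounds of 5.38 and 6.42 and did not pass (adjusted p of 0.0776 and 0.0583). In the WT group, Cacna1s, a muscle calcium channel subunit, was at least 11.8-fold lower in blockade (adjusted p = 0.0119). Coro2b, Popdc2 and Tmem37 were at least 9.37, 8.43 and 5.58-fold lower and passed. Ryr1, the muscle calcium release channel, and Acta2, an actin of smooth muscle, had bounds of 5.76 and 5.31 and did not pass (adjusted p of 0.12 and 0.0843). The 2 WT arrays of Acta2 read 2.32 and 0.602, so its WT level itself varied. Without blockade array 2 the calls on all genes of this paragraph ended.

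Among genes detected on all 4 arrays, further large rises were those of Ces2c (4.46), a relative of Ces2b, Lad1 (4.16), an anchoring filament protein, and Dglucy (4.01). The metallothioneins Mt1 and Mt2 rose by 3.37 and 3.18, Fam240a by 2.79, the β-tubulin Tubb2b by 2.78 and the ceramide kinase Cerk by 2.73. Lad1 read 0.626 and 0.945 in WT and 10.1 and 18.7 in blockade, and Mt1 read 0.244 and 0.644 against 4.0 and 4.2. Beside Egln3 and Epas1 above, large falls in this class were those of Plekho1 (-3.45), Ahnak (-3.21), a giant scaffold protein, Cyp2s1 (-2.86), a cytochrome P450, Eya2 (-2.64) and the myosin Myo1f (-2.55). Plekho1 read 7.82 and 8.87 in WT and 1.05 and 0.555 in blockade, and Myo1f read 12.3 and 12.6 against 2.45 and 1.83. Lsr (-2.32), a lipoprotein receptor, and Lgals3, which encodes galectin 3 (-2.25), followed. The U1 small nuclear RNA genes Rnu1b6, Rnu1a1 and Rnu1b1 had log2 fold changes of -2.43, -2.27 and -2.26 and are near-identical copies, so they count as 1 signal. All genes of this paragraph passed in limma, at adjusted p from 0.00793 to 0.0497. Without blockade array 2 all of these calls ended, and those on Mt2, Lsr and Rnu1b6 also ended on the median scale.

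Markers of other cell types were read beside these results. Erythroid and platelet genes differed most, with a summed scaled intensity over 13 genes of 3.86 and 11.9 on the WT arrays and 228 and 191 on the blockade arrays, and 7 of 9 tested members rose. Hba-a1, an α-globin, read 1.48 and 5.29 in WT and 98.3 and 85.9 in blockade (5.04, SE 0.54, limma adjusted p = 0.0179), and Hba-a2 and Hbb-bt rose by 5.12 and 4.92. Hbb-b1, Hbb-b2, Alas2, an enzyme of haem synthesis in red cells, and Pf4, a platelet chemokine, were detected on the blockade arrays alone, while the platelet integrin Itga2b was detected on none. The globin genes are close copies of each other. With all 6 arrays in the fit 0 of these 9 passed, and before scaling Hba-a1 read 1152 and 44583 on the 2 arrays of the third group. The count was also 0 without either blockade array. The part of red cell RNA in any of the rises above was not tested.

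B cell markers summed to 7.70 and 5.18 in WT and 8.92 and 12.4 in blockade over 14 genes, of which 7 were detected on no array, Cd79a among them. Cd79b, a B cell receptor subunit, was the marker that rose (0.509 and 0.448 against 2.87 and 4.17; 2.86, limma adjusted p = 0.012). Monocyte, macrophage and neutrophil markers summed to 54.6 and 49.6 in WT and 52.6 and 119 in blockade over 19 genes. The neutrophil gene S100a9 read 2.77 and 5.58 in WT and 8.44 and 51.8 in blockade and did not pass (2.41, adjusted p = 0.205), so blockade array 2 stood apart there. CD8 T and NK cell markers summed to 14.7 and 10.5 against 18.4 and 30.5 over 9 genes, which include Eomes, while Cd8a and Ncr1 were detected on no array. Dendritic cell markers lay between 161 and 182 on the 4 arrays, and plasma cell markers between 0.653 and 2.66. Of the 11 dendritic genes only 3, Siglech, Bst2 and Cst3, were detected on all 4 arrays, and they made up nearly the whole sum. Another 6, Itgax, Flt3 and Xcr1 among them, were detected on no array. Among the sums of the 5 lists other than T cell identity and red cells, the 2 groups did not overlap for B cells and for CD8 T and NK cells. These 2 sums include Cd79b and Eomes, genes that passed themselves. In the B cell list Cd22 went the other way, from 1.19 and 0.952 in WT to 0.662 and 0.515 in blockade. Cd8b1, the largest term of the CD8 T and NK cell sum, overlapped between groups (6.93 and 5.80 against 6.05 and 13.1). The part of these cells in the results above was not tested.

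**Figure D5:**
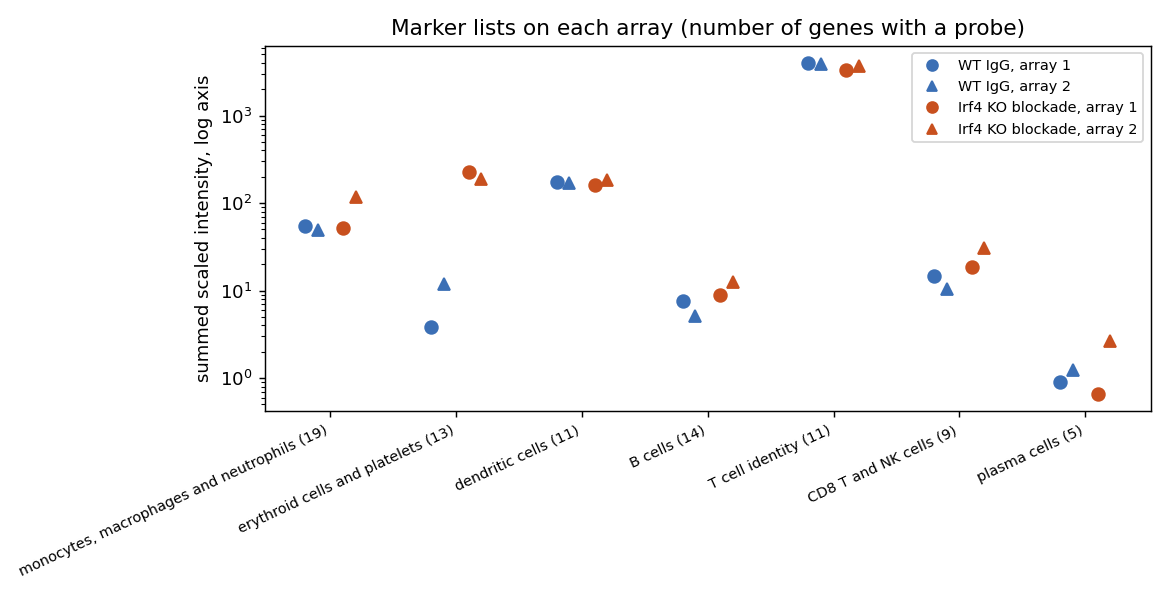
Summed scaled intensity of each marker list on each of the 4 arrays, on a log axis, with the number of genes with a probe beside each name; blue marks WT IgG, orange Irf4 KO blockade, circles array 1 and triangles array 2. The erythroid and platelet sums of 228 and 191 on the blockade arrays stand above the 3.86 and 11.9 of the WT arrays, and blockade array 2 is the highest in the myeloid list.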

How the data were processed

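The 4 arrays measured total RNA of sorted TEa cells, 0.5 µg labelled with Cy3 per the labels' protocols. Per the file headers, the authors' deposited scanner files hold Agilent Feature Extraction 11.0.1.1 intensity values, background-subtracted and not scaled between arrays (version 9.1 in the submitters' processing notes). A value table deposited beside them gives each array's intensity divided by 1 number, as a ratio (tolerance 0.001), and served as an alternative. Of 62976 spots, 59305 were no controls (56605 probes, 419 without a usable spot on some array left out). Spots of a probe were averaged as log2 and the array's 75th percentile subtracted. Probes well above background on both arrays of at least 1 group were kept (20255), and 1 probe a gene, the brightest on average, was used. RefSeq (GRCm38.p6) named 58.3% of the probes; the array design names another build, so no probe position is given. Fits used limma 3.58.1 in R 4.3.3 (lmFit, eBayes with trend, 2 residual and 4.17 prior degrees of freedom), two-sided. The p-values were adjusted by Benjamini and Hochberg's method (threshold 0.05). The fit was also run on simulated arrays of independent values whose spread followed intensity alone. That simulation does not cover shifts of an array shared by many genes. The number of arrays limits the precision, and p-values cover the spread between 2 arrays a group. All 4 arrays lay on 1 slide.

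Named genes are Irf4, the 15 highest and lowest that passed and were detected on all 4 arrays, the 10 largest bounds each way, up to 5 members of a list by p, and a fixed set of T cell genes. The members, lists and rule were chosen with earlier results of these data known. Settings tried were other scales (median, quantile), normexp with offset 50, other filters, no trend, all 6 arrays, blocks, the mean of probes, the value table and leaving out each array.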

Additional observations from a re-analysis of the deposited data

How the results depend on the processing

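All 287 genes that passed kept their direction in each of the 16 other settings in which they were tested. Where 1 array was left out this was fixed in advance, since the groups of these genes did not overlap. It was also fixed with no intensity trend and with a block, which leave the fold changes as they are. The count that passed (287, of which 166 higher and 121 lower) was 1685 (901 and 784) with no filter on dim probes, 107 (68 and 39) with no intensity trend, and between 11 (6 and 5) and 1942 (902 and 1040) when 1 array was left out. The array median gave 76 lower genes in place of 121. The counts of genes detected in 1 group alone, 127 and 224, were 20 and 23 where the brighter group also had to reach 4 times the detection floor. Irf4 passed in 13 of 16 other settings. It did not pass with no intensity trend (1.5, adjusted p = 0.0672), in a range of adjusted p from 1.2e-12 to 0.123, and its log2 fold change lay between 1.38 and 1.61 without 1 array. With the replicate number as a block 511 genes passed (322 higher and 189 lower). The numbers only name the repeat in the labels, and the within-group deviations of same-numbered arrays correlated at -0.12, so the block is not a pairing by design. The crossed replicate block, added after seeing the data, pairs arrays of the same slide row and gave 320 genes. It is the same fit as the slide row block, so the 16 settings count that fit again. Leaving out an array leaves 1 array in its group, which is assumed to vary like the other group. The cause of these changes was not tested. Weak probes limit the comparison, since below the 75th percentile the smallest change that passed was 2.88-fold, against 1.83-fold above 16 times it.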
